A study of Mus musculus with 12 samples.

Results

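The sarcomeric myosin heavy chains are the motor proteins of the thick filament, and 9 genes of this kind were followed here: Myh1, Myh2, Myh3, Myh4, Myh6, Myh7, Myh7b and Myh8, with Myhas, a non-coding transcript on the opposite strand of the heavy chain cluster. They were taken by gene symbol from the deposited table of 23586 genes, in a choice made with earlier results of these data known. All 9 were among the 14580 genes with enough reads to be tested. The cells were mouse muscle stem cells of the genotype Pax3nLacZ-IRES-GFP, in which GFP marks cells that use the Pax3 locus. They were sorted into GFP-positive and GFP-negative cells and grown at low density in 20% serum with 4 ng/mL basic FGF. Each population received 2 µg of pCR3-Six2, a plasmid with the mouse cDNA of the homeobox factor SIX2, or of the empty pCR3 plasmid, and RNA from at least 50000 cells a sample was sequenced in 3 libraries for each of the 4 groups. The time from transfection to RNA extraction and the promoter of the plasmid are not given in the sources used here.

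Each sarcomeric heavy chain gene codes for a motor with its own speed of contraction, and muscle fibres are typed by the chain they make. Myh3 is the embryonic chain and Myh8 the perinatal chain, both made early in muscle formation and again in regeneration. Myh2, Myh1 and Myh4 are the adult fast chains of type IIa, IIx and IIb fibres, Myh7 is the chain of slow fibres and of the heart ventricle, Myh6 is the cardiac alpha chain and Myh7b is an older, divergent member of the family. Undifferentiated myoblasts make little of these proteins, and heavy chain genes are switched on as the cells leave the cycle and form fibres.

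Depth differed between groups. Reads per library, in units of 1e6, were 12.4 to 33.2 for GFP-negative control, 34.05 to 40.2 for GFP-negative SIX2, 31.3 to 47.3 for GFP-positive control and 12.6 to 15.5 for GFP-positive SIX2 libraries. The myogenic markers Pax7 (82.5 to 184 normalized counts), Myod1 (14410 to 19016) and Des (97424 to 183827) were present in every library. Dcn, from the fibro-adipogenic list, was at 0 reads in 11 of 12 libraries and Adgre1 of macrophages in 11. Cd3e of T cells was at 0 reads in 10, and the heart markers Nppa and Nkx2-5 in 9 each. Other markers of those lists had reads at low levels, with Cd34 at 10.7 to 58.5 normalized counts, Ly6a at 2.53 to 39.1, Cd68 at 7.15 to 38.8 and Tnni3 at 0.714 to 17.7 over the 12 libraries, and Pdgfra at 0 reads in 1 library and at most at 27.0. Six2 itself had 2 to 36 reads a library, and its difference between plasmid labels was not called (limma-trend log2 0.80 with adjusted p = 0.421 among GFP-negative libraries, 1.26 with adjusted p = 0.209 among GFP-positive ones). It gives no check of the plasmid, so the groups are called labelled SIX2 and labelled control. Pax3 was not called between the GFP labels of control libraries either (log2 −0.01, limma-trend adjusted p = 0.991), and it was lower with the SIX2 label in both populations (−2.06, adjusted p = 0.0022, GFP-negative; −2.82, adjusted p = 0.00029, GFP-positive). No label says that the 3 libraries of a group are separate animals or cultures, and p-values here speak only of the spread of these libraries.

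Of the 9 genes, 6 lie together on chromosome 11 of the mouse build GRCm38, within 230.3 kb from the start of Myh3 to the end of Myh8. In order along the plus strand they are Myh3 (67078300 to 67102291), Myh2 (67171027 to 67197517), Myh1 (67200052 to 67224575), Myh4 (67238029 to 67260446) and Myh8 (67277124 to 67308634), with 39 to 41 exons in the longest transcript of each. Myhas (67211256 to 67237573) runs on the minus strand, from 455 bases before the GENCODE start of Myh4 back across the 3′ part of Myh1. Of the 2027 bases covered by Myhas exons, 515 (25.4%) lie on exons of Myh1, in blocks of 256 and 259 bases. Myh6 (54941921 to 54966927) and Myh7 (54970684 to 54994626) are neighbours on the minus strand of chromosome 14, and Myh7b (155611212 to 155634307) is on the plus strand of chromosome 2.

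**Figure D1:**
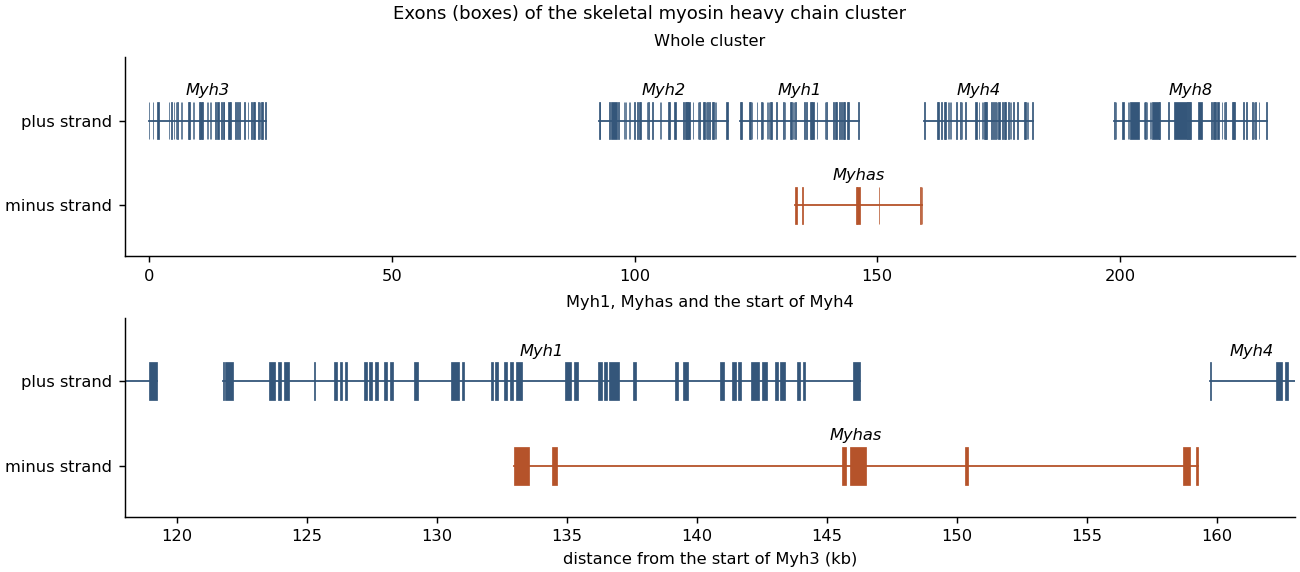
Exons of the heavy chain cluster as boxes, by distance from the start of Myh3 in kilobases, with the plus strand above the minus strand. The upper panel holds the 230.3 kb from the start of Myh3 to the end of Myh8. The lower panel enlarges Myh1, Myhas and the start of Myh4 (with the last exon of Myh2 at the left edge). There Myhas (orange) crosses the 3′ exons of Myh1 and starts 455 bases from the GENCODE start of Myh4.

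The sequences upstream of the 5 heavy chains of this cluster are shown because 4 of them share a run of bases that Myh3, the most abundant chain here, lacks. They are the bases before the RefSeq transcript start on GRCm38.p6, plus strand, read 5′ to 3′, at chr11:67078050-67078299 for Myh3, chr11:67276874-67277123 for Myh8, chr11:67199852-67200051 for Myh1, chr11:67170777-67171026 for Myh2 and chr11:67237562-67237811 for Myh4. Capitals mark the runs shared by Myh8, Myh1, Myh2 and Myh4, and the window of Myh1 is shown up to its GENCODE start, which lies 50 bases before the RefSeq start. The RefSeq start of Myh4 lies before its GENCODE start (67238029), and the first bases of its window overlap Myhas, which ends at 67237573.
Myh3: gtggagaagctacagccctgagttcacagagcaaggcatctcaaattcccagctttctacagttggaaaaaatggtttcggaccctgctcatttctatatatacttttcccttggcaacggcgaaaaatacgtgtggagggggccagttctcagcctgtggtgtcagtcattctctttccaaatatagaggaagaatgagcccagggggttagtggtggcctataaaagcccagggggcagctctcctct
Myh8: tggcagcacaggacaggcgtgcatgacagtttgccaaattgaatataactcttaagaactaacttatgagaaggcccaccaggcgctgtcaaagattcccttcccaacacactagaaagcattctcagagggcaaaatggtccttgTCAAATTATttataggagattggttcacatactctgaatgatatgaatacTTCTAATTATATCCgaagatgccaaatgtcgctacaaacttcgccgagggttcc
Myh1: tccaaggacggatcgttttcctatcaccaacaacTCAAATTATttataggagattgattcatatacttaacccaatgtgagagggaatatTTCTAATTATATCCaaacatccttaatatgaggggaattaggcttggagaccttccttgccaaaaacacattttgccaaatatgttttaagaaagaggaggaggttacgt
Myh2: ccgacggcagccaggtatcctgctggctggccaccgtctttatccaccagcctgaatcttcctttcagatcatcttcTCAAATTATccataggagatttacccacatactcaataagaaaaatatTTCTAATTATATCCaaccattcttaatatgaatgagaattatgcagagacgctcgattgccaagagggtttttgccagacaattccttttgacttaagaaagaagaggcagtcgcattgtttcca
Myh4: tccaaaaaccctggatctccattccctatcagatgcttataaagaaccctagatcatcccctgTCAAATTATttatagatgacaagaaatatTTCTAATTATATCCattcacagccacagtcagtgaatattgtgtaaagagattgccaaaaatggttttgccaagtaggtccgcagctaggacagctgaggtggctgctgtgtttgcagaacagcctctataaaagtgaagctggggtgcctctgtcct

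The longest run common to Myh8, Myh1, Myh2 and Myh4 was TTCTAATTATATCC, of 14 bases. Among 32851 upstream windows of 250 bases in the RefSeq table it was found, on either strand, in 4, those of these same genes. The run was picked from these 4 windows, so its presence in them was fixed by that choice. How rare a run of this length is by chance was not tested. Its first base lay 160 bases before the start of Myh1, 158 before that of Myh4, 125 before that of Myh2 and 54 before that of Myh8. A run of 9 bases, TCAAATTAT, lay further upstream in the same 4 windows and in 57 windows in all (0.174%). The letters TCAGGTT, a form of the MEF3 motif of muscle gene promoters, were in none of the 9 genes' windows on either strand, against 3.5% of all windows. The E-box CANNTG was in the windows of Myh3, Myh8, Myh4, Myh6, Myh7 and Myh7b and in 66.2% of all windows, and its form CAGCTG, a subset of the E-box that MYOD prefers, in that of Myh4 alone and in 13.0% of all. TATAAA was found, on either strand, in the windows of Myh3, Myh8, Myh1, Myh4 and Myhas, against 12.4% of all windows. In Myh8 it was on the minus strand only, and the plus-strand match of Myh1 lies in the 50 bases not shown. All 250 bases of the Myhas and Myh6 windows lie inside the GENCODE genes, so their matches are not upstream of those genes. These matches describe letters and no binding was measured.

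Heavy chain reads made up 1.31% ± 0.047 (SD, n = 3) of all reads in the GFP-negative control group and 1.13% ± 0.12 in the GFP-negative SIX2 group. The shares were 1.66% ± 0.17 in the GFP-positive control group and 1.25% ± 0.21 in the GFP-positive SIX2 group. To compare genes, each gene's normalized counts (reads divided by the library's size factor) were divided by the length of its longest transcript in kilobases. On that scale Myh3 averaged 29087 over the 12 libraries, Myh1 21547, Myh7 3575 and Myh8 2308. Myhas averaged 149.7, Myh7b 64.2, Myh2 32.7, Myh4 20.97 and Myh6 5.13.

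The embryonic chain Myh3 held a mean of 51.4% of the summed heavy chain level per kilobase and the IIx chain Myh1 held 37.98%. Slow Myh7 held 6.34%, perinatal Myh8 4.05%, and Myh7b, Myh2, Myh4 and Myh6 together the small rest, at 0.111%, 0.0587%, 0.0382% and 0.00879%. The order was nearly the same in every library. Myh3 exceeded Myh1 per kilobase in 12 of 12 libraries, by 1.186 to 1.55 times, and Myh7 exceeded Myh8 in 12 of 12, by 1.28 to 1.92 times. The neighbours that changed places were Myh7b and Myh2, and Myh2 and Myh4, each in 1 library. Among the adult fast chains, Myh1 stood far above its cluster neighbours Myh2 and Myh4.

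**Figure D2:**
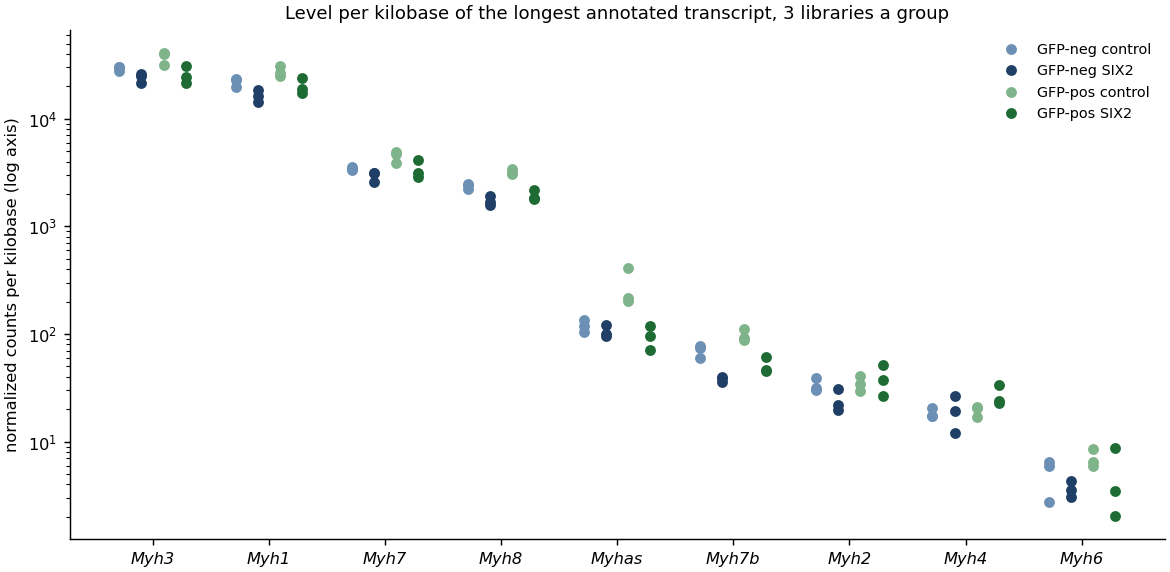
Level of each gene in normalized counts per kilobase of its longest annotated transcript, on a log axis, with a point for each of the 3 libraries of each group. Myh3 and Myh1 lie highest in every library (Myh1 from 14272 to 31067), Myh7 and Myh8 next, and the other genes well below, down to Myh6 at 2.05 to 8.79.

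Near-identical heavy chain genes can share reads, which bears on the genes of low level. Aligned coding sequences were 91.0% identical between Myh1 and Myh2, with an identical run of up to 268 bases, and 91.7% between Myh7 and Myh6. Of all 50-base windows of the longest transcript, 32.1% in Myh1, 28.9% in Myh2, 28.3% in Myh7, 23.3% in Myhas, 22.6% in Myh6, 21.4% in Myh8 and 18.9% in Myh4 occurred in another gene too, 4.81% in Myh3 and 0% in Myh7b. The Myh2 reads came to 0.105% to 0.219% of the Myh1 reads of the same library, Myh4 reads to 0.0622% to 0.140% of them, Myh8 reads to 9.13% to 12.3% of them, and Myh6 reads to 0.0696% to 0.206% of the Myh7 reads. How the authors' counting divided shared reads was not tested, and the values of Myh2, Myh4, Myh6 and Myh8 are uncertain for this reason.

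Among GFP-negative libraries, the divergent chain Myh7b and the perinatal chain Myh8 had the smallest adjusted p of the 9 genes, and both fell with the SIX2 label. Myh7b had 456, 476 and 367 normalized counts in the libraries labelled control and 221, 245 and 242 in those labelled SIX2. Myh8 had 15234, 13726 and 14774 against 11852, 10414 and 9684. The groups did not overlap for either gene, and the mean of Myh7b fell by 45.5% and that of Myh8 fell by 26.9%. In the limma-trend fit the log2 difference was −0.86 ± 0.15 (SE; adjusted p = 0.000829) for Myh7b and −0.46 ± 0.09 (adjusted p = 0.00171) for Myh8.

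The IIx chain Myh1 also fell with the SIX2 label in GFP-negative libraries. It had 141514, 138601 and 120497 normalized counts in the control libraries and 113847, 98686 and 86788 in the SIX2 libraries, without overlap. The log2 difference was −0.43 ± 0.13 (limma-trend adjusted p = 0.0221), and the call was lost without control replicate 1 or 2 or SIX2 replicate 2 or 3 (adjusted p up to 0.0972, without SIX2 replicate 3). The abundant chains Myh3 and Myh7 had non-overlapping groups too but were not called. Myh3 had 166386, 184315 and 182025 against 155981, 152014 and 129898 (log2 −0.29 ± 0.12, limma-trend adjusted p = 0.101). Myh7 had 21311, 22147 and 20933 against 19531, 19391 and 16159 (log2 −0.23 ± 0.12, limma-trend adjusted p = 0.186). With only the 6 compared libraries in the fit, Myh3 and Myh7 were called as well (adjusted p = 0.0186 and 0.0379).

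Myh2, Myh4, Myh6 and Myhas overlapped between the GFP-negative groups and were not called. Myh2 had 238, 183 and 193 normalized counts against 119, 186 and 133, Myh4 124, 104 and 104 against 159, 117 and 72.2, and Myh6 36.4, 39.6 and 16.9 against 26.4, 21.7 and 18.6. Myhas had 98.5, 128 and 114 against 95.7, 90.2 and 115, a log2 difference of −0.17 with a 95% interval from −0.75 to 0.41. Their log2 differences ran from −0.50 for Myh2 to −0.0006 for Myh4, whose sign turned under other scalings.

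In counts, 3 of the 9 genes were called lower in GFP-negative libraries and none higher. Over all 14580 genes, 27.9% were called between these groups, 14.3% lower and 13.6% higher, and 39% had an unadjusted p under 0.05, as had 4 of the 9. The groups did not overlap for 5 of the 9, all lower, against 23.5% lower and 22.8% higher over all genes. The median log2 difference of the 9 genes was −0.38 and that of all genes tested was 0.0046.

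Among GFP-positive libraries, Myhas had the largest fall with the SIX2 label among the 9 genes. It had 393, 206 and 192 normalized counts in the control libraries (514, 373 and 227 reads) and 67.9, 91.6 and 114 in the SIX2 libraries (38, 47 and 70 reads). The groups did not overlap, and the mean fell by 65.4%. The log2 difference was −1.47 ± 0.27 (limma-trend adjusted p = 0.00152). The control library labelled replicate 1 stood above the rest, and without it the difference was −1.15 and was still called.

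Myh7b and Myh8 fell in GFP-positive libraries as well. Myh7b had 572, 693 and 539.95 normalized counts in the control libraries against 375, 279 and 283, and its mean fell by 48.1% (log2 −0.95 ± 0.15, limma-trend adjusted p = 0.000527). Myh8 had 20997, 19128 and 18752 against 11001, 11302 and 13431, and its mean fell by 39.3% (log2 −0.72 ± 0.09, limma-trend adjusted p = 7.08e-05). Neither gene's groups overlapped. These calls held in each of the 12 fits that left out a library.

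The embryonic chain Myh3 was called lower in GFP-positive libraries, as were Myh1 and Myh7. Myh3 had 239253, 244671 and 190105 normalized counts in the control libraries against 129343, 146299.6 and 184804 (log2 −0.56 ± 0.12, limma-trend adjusted p = 0.00537). Myh1 had 188916, 163751 and 152544 against 104611, 115551 and 147042 (log2 −0.47 ± 0.13, limma-trend adjusted p = 0.0155). Myh7 had 30592, 29255 and 24291 against 17957, 19591 and 26083 (log2 −0.41 ± 0.12, limma-trend adjusted p = 0.0259). The groups of Myh3 and Myh1 did not overlap, while those of Myh7 did, since the SIX2 library labelled replicate 3 was above the lowest control.

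That library was the highest of its group for Myh3, Myh8, Myh1, Myh2, Myh4, Myh7, Myh6 and Myhas, and second of 3 for Myh7b. Without it the log2 differences were −0.70 for Myh3, −0.81 for Myh8, −0.61 for Myh1 and −0.57 for Myh7, each called, and Myh6 was called too (−1.32, limma-trend adjusted p = 0.0469). Myh1 lost its call without control replicate 1 or SIX2 replicate 1 or 2 (limma-trend adjusted p up to 0.0684), and Myh7 without control replicate 1 or 2 or SIX2 replicate 1 or 2 (up to 0.105). Myh7 was not called with only the compared libraries either (adjusted p = 0.075).

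The fast chains Myh2 and Myh4 were not called in GFP-positive libraries, and their fitted differences were above 0. Myh2 had 246, 208 and 181 normalized counts against 229, 162 and 313 (log2 0.11, 95% interval −0.40 to 0.62), with overlapping groups, and its sign turned without the SIX2 library labelled replicate 3 (−0.12). Myh4 had 127, 102 and 125 in the control libraries and 138, 142 and 200.3 in the SIX2 libraries, without overlap (log2 0.42, 95% interval −0.13 to 0.98, limma-trend adjusted p = 0.27). Myh6, the cardiac alpha chain, had 52.8, 39.8 and 36.3 against 12.5, 21.4 and 53.7 and spanned its control group.

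In counts, 6 of the 9 genes were called lower in GFP-positive libraries and none higher. Over all genes tested 23.3% were called there, 11.2% lower and 12.1% higher, and 35% had an unadjusted p under 0.05, as had 6 of the 9. The groups did not overlap for 6 of the 9, of which 5 were lower and 1 (Myh4) higher, against 18.1% lower and 18.7% higher over all genes. The median log2 difference of the 9 was −0.56, beside −0.007 over all genes. In bulk RNA, fewer cells of a type and less RNA per cell cannot be told apart, so these falls may be of either kind. The summed level of 7 muscle stem cell and myoblast markers, most of it Des, moved with the label too. It was 212003 to 241219 normalized counts in GFP-negative control and 144387 to 168074 in GFP-negative SIX2 libraries, and 214429 to 234732 in GFP-positive control and 184398 to 205538 in GFP-positive SIX2 libraries. This sum stands mainly for Des and not for each marker of the list. Myod1, of the same list, was not called by plasmid label in either population. Its log2 difference was −0.16 (limma-trend adjusted p = 0.0892) in GFP-negative and −0.13 (adjusted p = 0.188) in GFP-positive libraries. The 4 smooth muscle and pericyte markers, most of them Cspg4, summed to 1497 to 1945 in GFP-negative control against 979 to 1536 in GFP-negative SIX2 libraries, and to 1769 to 1903 against 1108 to 1493 in GFP-positive ones. The 4 fibro-adipogenic markers measured summed to 38.5 to 53.6 against 73.8 to 84.2 and to 22.9 to 74.2 against 69.7 to 85.7, with Dcn at or near 0. The part of these markers in the heavy chain differences was not tested.

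**Figure D3:**
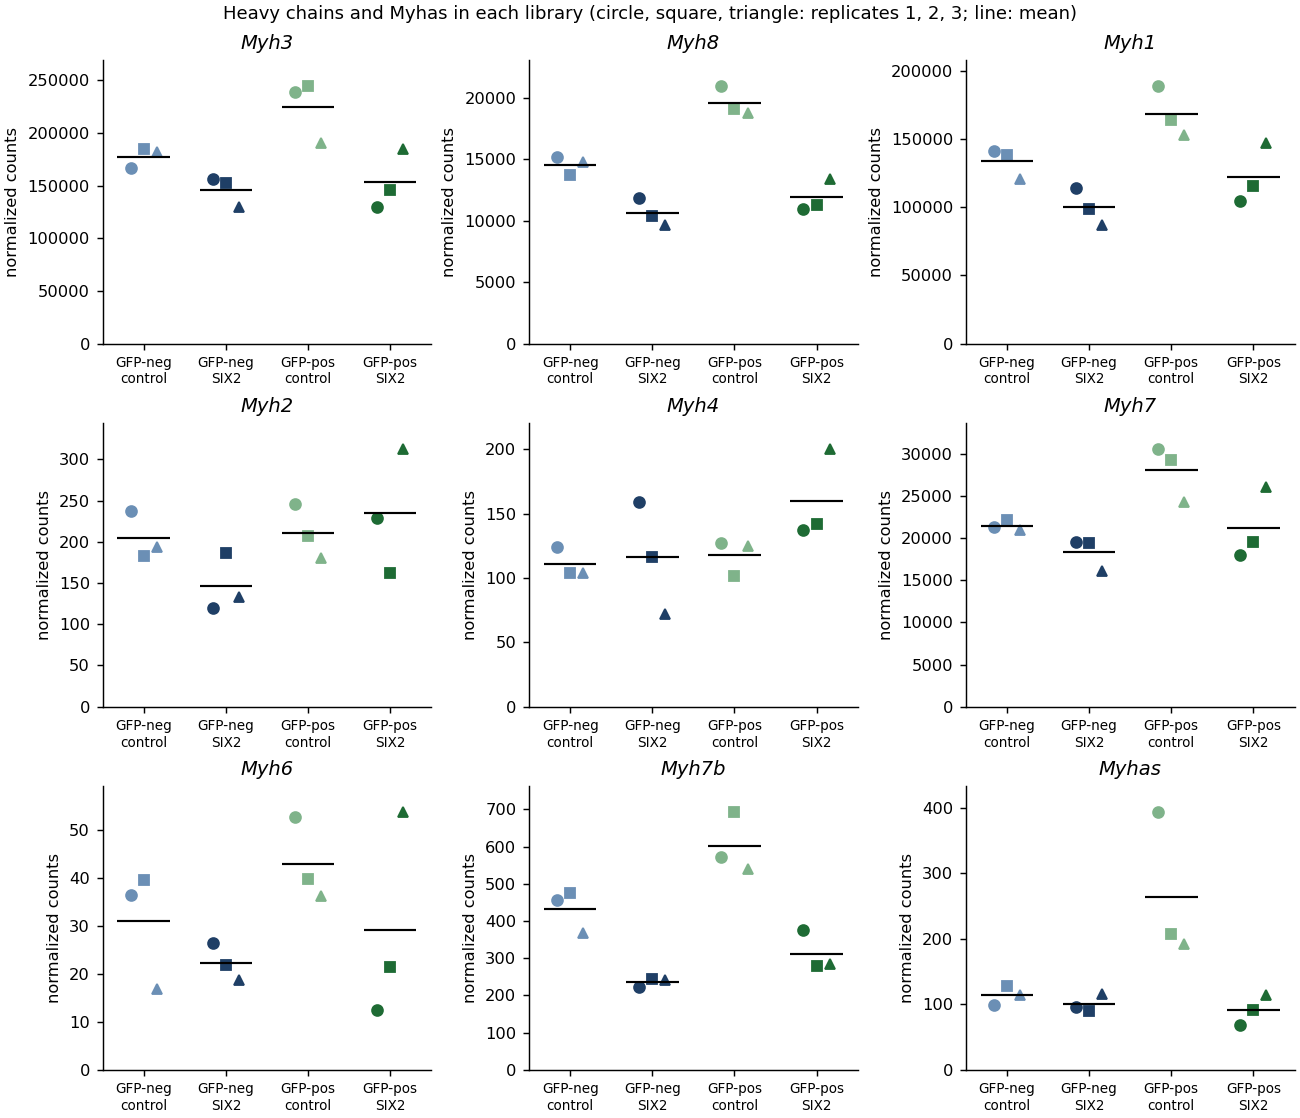
Normalized counts of the 9 genes in each library, on axes that start at 0, by group, with circle, square and triangle for replicates 1, 2 and 3 and a line at the group mean. Myh8, Myh1 and Myh3 lie lower in SIX2 than in control libraries of either population, Myh7b likewise, and Myhas is highest in the 3 GFP-positive control libraries (192 to 393).

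Between the sorted populations, the libraries labelled control were compared first. Myhas was higher in GFP-positive control libraries (393, 206 and 192 normalized counts) than in GFP-negative control libraries (98.5, 128 and 114), with a log2 difference of 1.14 ± 0.27 (limma-trend adjusted p = 0.0371). Myh8 was higher as well, at 20997, 19128 and 18752 against 15234, 13726 and 14774 (log2 0.43 ± 0.09, limma-trend adjusted p = 0.0209). The groups did not overlap for either gene. Leaving out a library ended the call of Myhas in 7 of 12 fits and that of Myh8 in 5 of 12. Both calls were lost without any of the 3 GFP-negative control libraries and without GFP-positive control replicate 1 or 2, and that of Myhas also without replicate 2 of either SIX2 group. Without the GFP-positive control library labelled replicate 1, Myhas was at 0.81 (adjusted p = 0.149) and Myh8 at 0.38 (adjusted p = 0.0949). The limma-trend call of Myhas was also lost with the replicate number as a block (adjusted p = 0.0736), with only the compared libraries in the fit (0.0529) and without a filter on low values (0.0533).

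The other heavy chains had fitted differences above 0 between these groups but were not called. They ran from 0.04 for Myh2 and 0.09 for Myh4 through 0.33 for Myh3, 0.33 for Myh1 and 0.38 for Myh7 to 0.47 for Myh7b and 0.53 for Myh6. The groups of Myh3, Myh1, Myh7 and Myh7b did not overlap, with every GFP-positive control library above every GFP-negative one. Called were 2 of the 9, both higher, beside 3.48% of all genes in either direction, 0.919% higher and 2.56% lower. Without overlap were 6 of the 9, all higher, beside 13% higher and 14.1% lower over all genes, and 6 of the 9 had an unadjusted p under 0.05, beside 19.8%. The median log2 difference was 0.38 over the 9 and −0.002 over all genes.

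Among libraries labelled SIX2, none of the 9 genes was called between GFP labels. The largest fitted difference was that of Myh2 (log2 0.65, 95% interval 0.14 to 1.16, limma-trend adjusted p = 0.264), and Myhas was at −0.16 (95% interval −0.74 to 0.42). Myh7b was the gene without overlap, at 375, 279 and 283 in GFP-positive against 221, 245 and 242 in GFP-negative libraries (log2 0.39, limma-trend adjusted p = 0.284). Called were 0.192% of all genes, 0.0137% higher and 0.178% lower. An unadjusted p under 0.05 was found for 3 of the 9 genes, beside 13% of all, and 9.05% of all genes were without overlap higher and 8.16% lower. The median was 0.19 over the 9 genes and −0.015 over all.

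**Figure D4:**
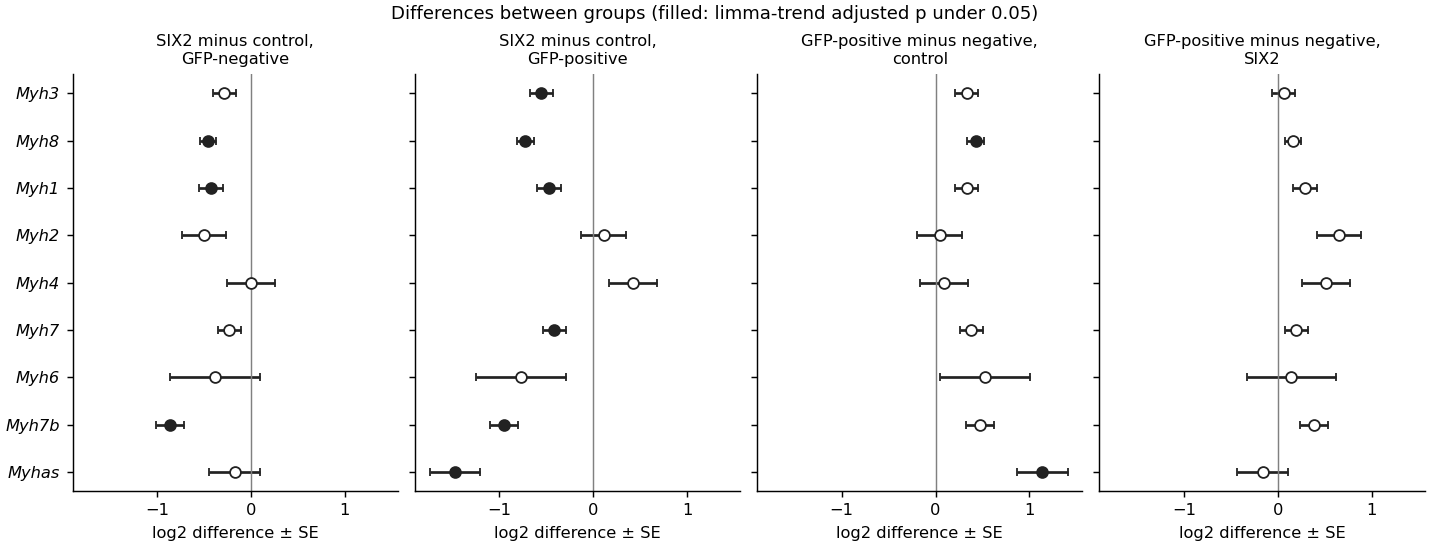
Fitted log2 differences of the 9 genes with their standard errors in 4 comparisons of groups of 3 libraries, with filled points where the limma-trend adjusted p was under 0.05. The points of Myh8 and Myh7b lie below 0 for the SIX2 label in both populations, and Myhas lies at −1.47 in the GFP-positive and −0.17 in the GFP-negative population.

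Whether the plasmid label acted differently in the populations was tested as the interaction of the labels. None of the 9 genes was called, and of all 14580 genes 0% were called by limma-trend, with 16.7% at an unadjusted p under 0.05, against 2 of the 9. No gene was called by edgeR, and 562 were by DESeq2. The largest was Myhas, at −1.30 ± 0.38 (95% interval −2.12 to −0.48, limma-trend adjusted p = 0.132), which DESeq2 called (−1.34, adjusted p = 0.0312). Myh8 was at −0.27 (95% interval −0.53 to −0.001, limma-trend adjusted p = 0.297), Myh7b at −0.08 (−0.54 to 0.37) and Myh1 at −0.04 (−0.43 to 0.34). Of the 5 comparisons, those that share groups of libraries are not independent of each other.

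Myhas was read against Myh1 because their exons overlap and the library preparation does not mark strand. In the overlap, reads of Myhas and Myh1 cannot be told apart. The reads counted for Myhas came to 0.0649% to 0.208% of the Myh1 reads of the same library. In the GFP-positive control group this share was 0.153% ± 0.048 (SD, n = 3), and in the other groups it was 0.0855% ± 0.014 (GFP-negative control), 0.103% ± 0.026 (GFP-negative SIX2) and 0.0739% ± 0.0078 (GFP-positive SIX2). The library with the highest share, GFP-positive control replicate 1, also had the most Myh1 of its group (188916 normalized counts). In both GFP-negative groups the highest share was in replicate 3, the library with the least Myh1. It was 0.0942% beside 120497 normalized counts of Myh1 in the control and 0.133% beside 86788 in the SIX2 group. In the GFP-positive SIX2 group, replicate 2 had the highest share (0.0793%) and neither the most nor the least Myh1. How many of the Myhas reads came from Myh1 was not tested.

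Ratios to Myh3 within a library do not depend on the size factor. The log2 ratio of Myh8 to Myh3 was lower with the SIX2 label by 0.17 in each population (−0.17 averaged over them), at p = 0.05 by a two-sided exact permutation test within GFP labels and 0.2 after Benjamini-Hochberg adjustment over 4 such tests, in which the smallest possible p was 0.005. The ratio of Myhas to Myh3 differed by −0.40 averaged over the populations (0.11 for GFP-negative, −0.92 for GFP-positive), with an exact permutation p = 0.105 and adjusted p = 0.21. By GFP label, the ratio of Myh8 to Myh3 differed by 0.10 (exact permutation p = 0.21, adjusted 0.26) and that of Myhas to Myh3 by 0.29 (p = 0.26, adjusted 0.26; 0.81 in control and −0.22 in SIX2 libraries). None passed the threshold. The ratio of Myh7b to Myh3 averaged −8.68 ± 0.24 (log2, SD, n = 3) in GFP-negative control, −9.26 ± 0.20 in GFP-negative SIX2, −8.54 ± 0.14 in GFP-positive control and −8.93 ± 0.47 in GFP-positive SIX2 libraries, and was not tested.

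**Figure D5:**
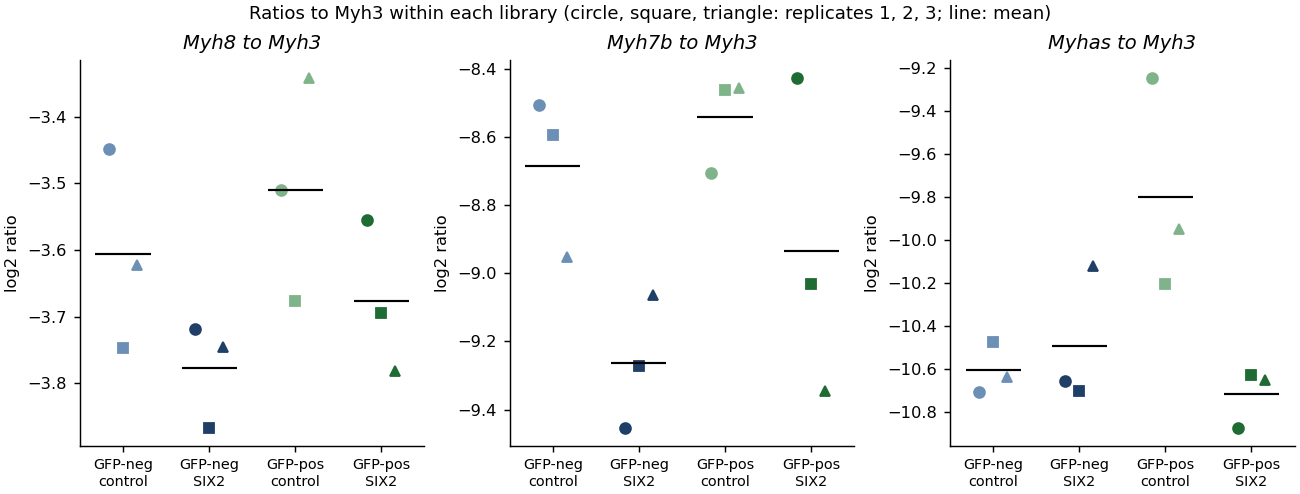
Log2 ratios of Myh8, Myh7b and Myhas to Myh3 in each library, by group, with circle, square and triangle for replicates 1, 2 and 3 and a line at the mean (the axes do not start at 0). Myhas to Myh3 has its highest mean in GFP-positive control libraries, which lie between −10.20 and −9.25, and GFP-negative SIX2 replicate 3 (−10.12) lies above the lowest of them. For Myh8 to Myh3 the SIX2 and control libraries of a population overlap.

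Across the 12 libraries, the gene whose log2 level was most like that of Myh3 was Lrpprc (Pearson's r = 0.962), followed by Ttll7 (0.962), Vash2 (0.958), Myh7 (0.957) and Palld (0.955), out of 10778 named genes with a mean of at least 50 normalized counts. For Myh1 the genes were Alpk2 (r = 0.989), Map4 (0.987), Myo18a (0.975), Map3k4 (0.969) and Slc4a3 (0.964). For Myhas they were Akap9 (r = 0.986), Cript (0.975), Usp16 (0.964), Nav2 (0.959) and Snhg20 (0.953). After group means were removed, r with the first gene was 0.868 for Myh3 with Lrpprc, 0.957 for Myh1 with Alpk2 and 0.961 for Myhas with Akap9. It was 0.959 for Myh3 with Myh7. These values describe 12 libraries that share group labels and size factors, and are given without a test.

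The partners of the heavy chains were read from lists of genes by role. The sarcomeric myosin light chains, which bind the neck of the heavy chain, fell with the SIX2 label in both populations, 5 of 5 tested and none higher, beside 14.3% of all genes called lower in the GFP-negative and 11.2% in the GFP-positive comparison. The median log2 difference was −0.57 for GFP-negative and −0.41 for GFP-positive libraries, beside medians near 0 over all genes. The fast regulatory chain Mylpf was at −0.57 and −0.40, the fast essential chain Myl1 at −0.39 and −0.41, the embryonic and atrial chain Myl4 at −0.54 and −0.34 and the slow chain Myl3 at −0.77 and −0.94, each with a limma-trend adjusted p of at most 0.00167. None was called between GFP labels.

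Genes for myosin folding, the M-band and thick filament turnover likewise fell, 8 of 9 tested in GFP-negative libraries (1 higher) and 7 of 9 in GFP-positive ones (none higher), beside 14.3% lower and 13.6% higher, and 11.2% lower and 12.1% higher, over all genes. The medians were −0.48 and −0.35. Trim63 (−0.86 and −0.72), Trim55 (−0.66 and −0.60) and Trim54 (−0.48 and −0.61) code for the MuRF ubiquitin ligases of the sarcomere, and Unc45b (−0.47 and −0.35) for the myosin chaperone. The gene that rose in GFP-negative libraries was the chaperone Hsp90aa1 (0.21), named after its value was seen. Of 3 myosin binding proteins, Mybpc1, the slow form of the C protein, rose in both populations (0.27 and 0.31), Mybph fell in GFP-negative (−0.53) and Mybpc2, the fast form, in GFP-positive libraries (−0.48).

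Of 7 non-muscle and smooth muscle myosin II genes tested, 4 rose and 1 fell with the SIX2 label among GFP-negative libraries, and 3 rose and 1 fell among GFP-positive ones. Over all genes, 13.6% were called higher and 14.3% lower in the former and 12.1% and 11.2% in the latter. The regulatory light chain Myl9 rose by 1.14 and 1.33, the non-muscle heavy chain Myh14 by 1.14 and 1.36 and the essential chain Myl6 by 0.58 and 0.39, while the regulatory chain Myl12b was at −0.53 and −0.47. The median was 0.55 and 0.29. The defining smooth muscle gene Myh11 was at 0 reads in 4 libraries and at most at 8.93 normalized counts.

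Of 21 regulators of fibre type and myosin genes, 6 were called lower and 1 higher in each population, with a median of −0.20 and −0.19. Over all genes, 14.3% were called lower and 13.6% higher among GFP-negative libraries. The shares among GFP-positive libraries were 11.2% lower and 12.1% higher. The gene that rose in both was the bZIP factor Maf (log2 1.46 among GFP-negative libraries, 1.25 among GFP-positive ones). Tead4, a TEA-domain factor of myoblasts, was at −0.71 and −0.49. Tbx15, a T-box factor of fast fibres, fell in GFP-negative libraries (−0.43) and was at −0.13 and not called in GFP-positive ones. Mef2c, a MADS-box factor that drives muscle genes, fell in both (−0.20 and −0.27). Between the GFP labels of control libraries Mef2c was the only gene of these 5 lists to be called (0.28, limma-trend adjusted p = 0.0149), and in SIX2 libraries and in the interaction none was.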

How the data were processed

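cDNA made by SMART-Seq2 was fragmented with Tn5, per the labels' protocols, which do not mark strand. Per the submitters' processing notes, STAR 2.7.11a, RSEM 1.3.3 and DESeq2 1.42.0 were used with build GRCm38 (no settings given). The values analysed were normalized counts per gene, a signal deposited by the authors on a linear scale after division by a size factor per library. The deposited values gave back whole reads for 100% of entries (within 0.0001), and size factors recomputed from those reads had a ratio of 1 to the deposited scaling. Replicate libraries differed by more than sampling noise (chi-square per degree of freedom 7.18 to 45.3).

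A gene was tested if 3 or more libraries held at least 10 normalized counts of it. The test was limma-trend (R 4.3.3, limma 3.58.1) of log2 values after adding 1 to each normalized count, two-sided, in 1 fit of 4 group means over the 12 libraries, with Benjamini-Hochberg adjustment and a threshold of 0.05. This scale understates the fold change of low genes. Alternatives were other pseudocounts, filters, TMM scaling, only the compared libraries, a replicate block, leaving out each library, and edgeR 4.0.16 and DESeq2 1.42.0 on the recovered reads. The fit was tested on simulated data. The authors' identifiers matched GENCODE in 99.85% of cases (9 of 9 genes here). Coding sequences were aligned with MAFFT 7.526. Upstream sequences are RefSeq's, on GRCm38.p6, matched by symbol for 9 of 9.

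The genes and lists were chosen with earlier results of these data known. Of each list, up to 4 called genes with the smallest p are named, and the results of a few are not reported here. The genes most like Myhas, and like Myh3 and Myh1 as the highest and next highest per kilobase, are the 5 with the highest Pearson's r.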

Additional observations from a re-analysis of the deposited data

How the results depend on the processing

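Depth limits Myh6 most, with 7 to 72 reads a library, then Myhas (38 to 514), Myh4 and Myh2. The plasmid-label counts kept within 1.5 times under every alternative, except that fitting the compared libraries alone called 5 of the 9 genes in GFP-negative libraries. Myh6 was not tested where a mean of at least 50 was asked, and edgeR and DESeq2 used recovered reads. Deviations of same-numbered libraries correlated at −0.203 to 0.045, which cannot show whether the numbers pair samples by animal or culture. With the replicate block, the control libraries gave 298 genes and 1 of the 9 called between GFP labels, against 507 and 2, and other counts stayed within 1.5 times. DESeq2 called 1087 genes and 4 of the 9 there, 292 genes between GFP labels of SIX2 libraries, and 562 genes and 1 of the 9 (Myhas) for the interaction, and without a filter 1 of the 9 was called between GFP labels of control libraries. The cause was not tested. Leaving out each library gave 68 to 820 genes and 0 to 3 of the 9 between GFP labels of control libraries. The gene counts that moved by over 1.5 times were 68, 187 and 174 without GFP-negative control replicates 1, 2 and 3, 314 without GFP-negative SIX2 replicate 2, and 85, 196 and 820 without GFP-positive control replicates 1, 2 and 3. None of the 9 was called without any GFP-negative control library or without GFP-positive control replicate 1 or 2, and 1 was called without replicate 2 of either SIX2 group. Between GFP labels of SIX2 libraries it gave 13 to 60 genes, with 60, 14 and 13 without GFP-negative SIX2 replicates 1, 2 and 3 and 17 without GFP-positive SIX2 replicate 2, and 0 to 171 for the interaction, with 171 without GFP-positive control replicate 3 and 56 without GFP-positive SIX2 replicate 3. With lengths of the union of exons, the shares of the summed level were 54.2% for Myh3, 2.24% for Myh8 and 4.85% for Myh7.

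Signs turned for differences near 0. Myh4 by plasmid label in GFP-negative libraries was 0.0018 with a pseudocount of 5, 0.0104 with TMM scaling, 0.0842 with edgeR and 0.075 with DESeq2, and −0.26 to 0.30 when each library was left out. Leaving out each library also gave, by plasmid label, −0.12 to 0.35 for Myh2 in GFP-positive libraries, and, by GFP label, −0.071 to 0.15 for Myh2 in control libraries and −0.0809 to 0.18 for Myh3, −0.41 to 0.60 for Myh6 and −0.34 to 0.032 for Myhas in SIX2 libraries. For the interaction it gave −0.18 to 0.062 for Myh1, −0.94 to 0.0741 for Myh6 and −0.22 to 0.0302 for Myh7b. None of these was called.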

Other observations

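Myh13, the superfast heavy chain of extraocular muscle, is not among the genes followed here and was read after its values were seen. It had 37.6 ± 8.13 normalized counts (SD, n = 3; 16 to 50 reads) in GFP-negative control and 13.3 ± 9.47 (5 to 31 reads) in GFP-negative SIX2 libraries, a log2 difference of −1.72 (limma-trend adjusted p = 0.0405). In GFP-positive libraries it had 57.6 ± 20.1 (46 to 103 reads) against 14.5 ± 8.22 (4 to 12 reads), a log2 difference of −2.00 (limma-trend adjusted p = 0.0232). Of the 50-base windows, 4.79% of those of Myh8 occur in Myh13 too, 3.22% of those of Myh1 and 2.83% of those of Myh3. For Myh2 and Myh4 the shares were 2.42% and 2.09%. How shared reads were divided was not tested.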
